A study of Mus musculus with 4 samples.

Results

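The genes described here govern whether a lymphocyte stays in a tissue, leaves it or is drawn to another one. They were chosen by symbol as 10 named genes, of which 9 are among the 10941 genes listed with counts. The members are Cd69 and Rgs1, which hold cells in tissue, S1pr1 and Klf2, which let them leave, and the chemokine receptors Ccr2, Ccr8, Ccr9, Cxcr4 and Cxcr6. Ccr6, the receptor for CCL20, was not analysed here.

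Transcripts were counted in 4 RNA-seq libraries of ILC2, the type 2 subset of innate lymphoid cells, which had been sorted from adipose tissue of mice, 2 libraries in each of 2 groups. All animals carried Il5RFP-cre (R5/+), a Cre recombinase at the Il5 locus, so deletion is limited to cells that have switched on Il5. One genotype was Rptor+/+ and the other Rptorf/f, in which Cre removes Raptor, the subunit that sets the growth-controlling kinase mTORC1 apart from mTORC2. The samples named WT by library carry Rptorf/f in their titles and those named KO carry Rptor+/+, so titles and library names give opposite genotypes in all 4 samples. Groups are therefore called WT-named and KO-named, single libraries WT1, WT3, KO1 and KO3 by replicate number, and directions are KO-named minus WT-named. Neither the age of the mice nor whether each library is an animal of its own is given in the sources used here. Every p-value then reflects the spread among these samples alone, and that spread may be technical.

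ILC2 settle in tissues early in life and are renewed there, with little recirculation through blood. Sphingosine-1-phosphate is high in blood and lymph and low in tissue, and a cell with the receptor S1PR1 on its surface follows that gradient out. KLF2 is a transcription factor that switches on S1pr1, CD69 binds S1PR1 and takes it off the surface, and RGS1 damps the G proteins through which S1PR1 and chemokine receptors signal. Chemokine receptors then set which tissue or niche a cell is drawn to.

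Library totals ran from 15258780 to 18856218 counts, and CPM below are counts relative to the total after TMM scaling. The targeted gene Rptor did not separate the groups, at 14.5 CPM in WT1, 76.8 in WT3, 0.971 in KO1 and 33.9 in KO3 (log2 fold change -1.39, SE 1.80, edgeR adjusted p = 0.906). Its difference was -0.43 without KO1, -5.58 without KO3, -2.14 without WT1 and 0.39 without WT3. All 17 ILC2 markers were present in every library, with a summed level of 15108 to 19002 CPM. Mast cell markers were abundant in all 4 libraries as well, 12 of 15 being listed with a summed level of 7084 to 10976 CPM. The part of mast cells in the levels given below was not tested. KO1 stood apart from the other libraries by fibroblast markers. Its listed markers Col1a2, Gsn and C7, 3 of 10, summed to 1016 CPM, against 0.235 to 7.58 CPM elsewhere. Fold changes without that library are therefore given for several of the genes that it moved. In such bulk samples fewer cells of a type and less RNA per cell cannot be told apart.

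The 9 genes fell into an abundant and a scarce set. Levels between genes are compared as CPM per kb of the longest annotated transcript, averaged over the 4 libraries. Cxcr6 was highest at 363 CPM per kb ± 143 (SD, n = 4), although Cd69 came first when the median transcript length was used. It was followed by Rgs1 at 266 ± 69.2, Ccr2 at 215 ± 34.6, Cd69 at 151 ± 83.2 and Ccr8 at 148 ± 68.6. These 5 genes lay above 95.5% to 98.1% of all listed genes with a known length. The scarce set held Cxcr4 at 27.2 CPM per kb ± 3.49, Klf2 at 25.0 ± 11.1, S1pr1 at 13.6 ± 13.1 and Ccr9 at 5.09 ± 2.95. Among the 9 members, Cd69 and Rgs1 and the receptors for CXCL16, CCL2 and CCL1 were thus the abundant ones. S1pr1, Klf2, the gut-homing receptor and the CXCL12 receptor Cxcr4 were the scarce ones. Retention and egress are represented here by 2 genes each, and the wider lists below hold scarce retention genes and abundant egress genes as well. Each neighbour in this order overlapped the next in its range over the libraries, with the exception of Ccr8 and Cxcr4, which were 62.9 CPM per kb at the lowest and 32.0 at the highest. The highest value in the scarce set was 38.2 CPM per kb, for Klf2 in KO1, so the abundant and scarce sets did not overlap.

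**Figure D1:**
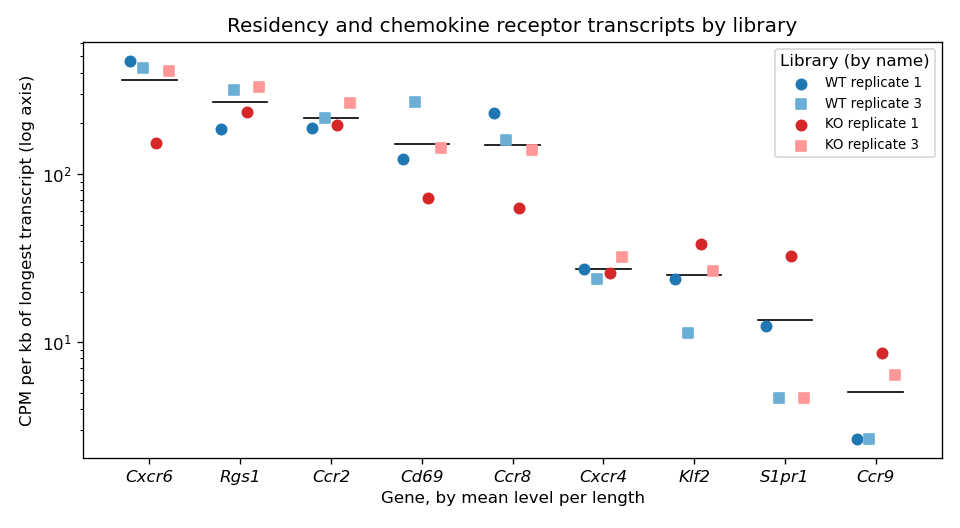
Level of the 9 listed genes in each library, in CPM per kb of the longest annotated transcript on a log axis, with WT-named libraries in blue and KO-named in red; horizontal lines are means over the 4 libraries. The lowest value of the 5 genes on the left, 62.9 for Ccr8 in KO1, lies above the highest value of the scarce genes, 38.2 for Klf2 in KO1. Cxcr6 and Ccr8 are lowest in KO1.

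None of the 9 genes passed the test between the KO-named and WT-named libraries. All 9 were among the 8753 genes tested with edgeR's quasi-likelihood test, and their Benjamini-Hochberg adjusted p over all genes lay between 0.643 and 0.983. No gene of the whole table passed either (0.0%), and 859 genes (9.81%), none of them a member, had an unadjusted p under 0.05. DESeq2 called 952 of 9667 genes (9.85%) and limma-voom 201 of 8753 (2.3%), again with 0 members each. Of the 9 log2 fold changes 6 were above 0 and 3 below, with a median of 0.18 against 0.05 over all genes tested. Over all genes tested 51.4% were above 0. KO1 and KO3 were each higher than WT1 and WT3 for 2 of 9 members, Klf2 and Ccr9 (22.2%; 17.8% of all tested genes), and each lower for 2, Ccr8 and Cxcr6 (22.1% of all tested genes). In either direction 39.8% of all tested genes had groups without overlap, so these counts are near the background. With 2 libraries a group, the smallest 2-sided exact permutation p is 0.333.

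The promoters of the 4 genes whose groups did not overlap are shown, because Ccr9 and Cxcr6 are neighbours on chromosome 9, 23.0 kb apart, and differed in opposite directions, while Ccr8 followed Cxcr6 and Klf2 encodes a factor that binds the letters CACCC. Each covers 250 bases before to 50 bases after the annotated start, 5′ to 3′ on the strand of the gene, which is plus for all 4, from RefSeq's annotation of GRCm38.p6. Capitals mark CACCC or, read from the other strand, GGGTG. Of the 9 listed members 6 had a promoter in that table.
Ccr9 (chr9:123766961-123767260): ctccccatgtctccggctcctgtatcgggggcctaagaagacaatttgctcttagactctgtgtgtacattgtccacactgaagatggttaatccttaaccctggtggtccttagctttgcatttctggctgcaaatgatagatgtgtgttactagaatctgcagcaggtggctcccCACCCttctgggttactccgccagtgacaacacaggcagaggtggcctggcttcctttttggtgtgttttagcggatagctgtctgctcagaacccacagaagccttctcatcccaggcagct
Cxcr6 (chr9:123806227-123806526): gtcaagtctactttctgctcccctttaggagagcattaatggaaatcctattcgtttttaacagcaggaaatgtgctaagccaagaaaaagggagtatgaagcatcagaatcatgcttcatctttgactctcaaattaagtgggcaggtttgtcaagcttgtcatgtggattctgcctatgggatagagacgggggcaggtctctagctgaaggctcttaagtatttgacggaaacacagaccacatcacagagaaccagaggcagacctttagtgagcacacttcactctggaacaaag
Ccr8 (chr9:120091883-120092182): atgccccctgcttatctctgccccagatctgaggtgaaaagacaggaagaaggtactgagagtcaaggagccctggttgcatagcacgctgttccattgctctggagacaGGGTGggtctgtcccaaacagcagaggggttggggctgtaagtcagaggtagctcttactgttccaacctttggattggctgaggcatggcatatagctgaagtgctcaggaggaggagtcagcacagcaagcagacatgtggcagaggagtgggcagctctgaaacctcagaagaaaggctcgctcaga
Klf2 (chr8:72318812-72319111): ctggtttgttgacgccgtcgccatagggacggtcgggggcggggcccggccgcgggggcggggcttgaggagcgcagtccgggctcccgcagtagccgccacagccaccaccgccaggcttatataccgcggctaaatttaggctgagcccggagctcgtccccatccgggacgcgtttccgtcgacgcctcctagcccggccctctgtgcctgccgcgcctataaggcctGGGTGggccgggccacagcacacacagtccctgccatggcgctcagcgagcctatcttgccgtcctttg
CACCC was found once each in the promoters of Ccr9, Ccr8 and Klf2, and not in that of Cxcr6. Over all 27025 genes with a promoter 56.7% held it on either strand, so its presence is common. The FOXO letters TGTTTAC, held by 3.55% of all promoters, and the AP-1 letters TGACTCA, held by 5.17%, were in none of the 6 member promoters on either strand. The motifs do not overlap each other. Cxcr6 was also the poorer in G and C, at 44.3% against 51.3% for Ccr9, 54.0% for Ccr8 and 69.3% for Klf2.

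Cd69 encodes a lectin-like surface protein that appears on activated and tissue-resident lymphocytes. It lies on chromosome 6 (129267324 to 129275375, mm10, Entrez 12515). Its level was 613 CPM in WT1, 1331 in WT3, 356 in KO1 and 709 in KO3. WT3 was the highest library and KO1 the lowest, and WT1 lay below KO3, so the groups overlapped. Means by group were 972 CPM ± 508 for WT-named and 533 CPM ± 249 for KO-named (SD, n = 2 each), or -0.87 as a log2 fold change (SE 0.49, edgeR adjusted p = 0.643). The size of that difference rested on WT3, without which it was -0.11, and it was -0.45 without KO1.

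Rgs1, a GTPase-activating protein that shortens G protein signals downstream of chemokine receptors, lies on chromosome 1 (144244669 to 144249104, Entrez 50778). It was at 1082 CPM in WT1, 1852 in WT3, 1356 in KO1 and 1928 in KO3. The groups overlapped, and the libraries of a group were further apart than the group means of 1467 CPM ± 544 and 1642 CPM ± 404 (SD, n = 2 each). Their log2 fold change was 0.16 (SE 0.38, edgeR adjusted p = 0.954), and it was -0.14 with library size alone as the scaling.

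S1pr1, the egress receptor, lies on chromosome 3 (115710433 to 115715055, Entrez 13609) and varied most among the members. Its level was 38.2 CPM in WT1, 14.2 in WT3, 98.9 in KO1 and 14.3 in KO3. A single library, KO1, was high, whereas KO3 and WT3 held nearly the same level. The highest library was 6.96 times the lowest, and the smallest count behind these values was 243, for which counting error alone is 6.42%. As a log2 fold change the difference was 1.11 (SE 1.40, edgeR adjusted p = 0.905), and it became -0.86 without KO1. KO1 is also the library with fibroblast transcripts, and the part of those cells in its S1pr1 level was not tested. Endothelial cells also use S1PR1, and their part in the S1pr1 level was not tested either. The 3 of 7 endothelial markers that were listed (Pecam1, Cdh5 and Kdr) summed to 0.469 to 2.07 CPM.

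Klf2 lies on chromosome 8 (72319062 to 72321654, Entrez 16598). It was at 44.1 CPM in WT1, 20.8 in WT3, 70.6 in KO1 and 48.9 in KO3. The groups did not overlap, although WT1 and KO3 were close. Means by group were 32.4 CPM ± 16.4 for WT-named and 59.8 CPM ± 15.3 for KO-named (SD, n = 2 each). On the log2 scale the difference was 0.88 (SE 1.19, edgeR adjusted p = 0.914), 0.61 without KO1 and between 0.50 and 1.50 whichever library was left out.

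Within each group, the library with more Cd69 also held more Rgs1 and less S1pr1 and Klf2. Between the 2 WT-named libraries, replicate 3 minus replicate 1, the log2 difference was 1.12 for Cd69 and 0.77 for Rgs1, and -1.43 for S1pr1 and -1.08 for Klf2. Between the KO-named libraries it was 0.99 and 0.51, and -2.79 and -0.53, in the same order of genes. For Cd69, S1pr1 and Rgs1 these differences between libraries of 1 group were larger than the difference between the groups. The ratio of Cd69 to S1pr1, both in CPM per kb, was accordingly 9.84 in WT1, 57.4 in WT3, 2.21 in KO1 and 30.5 in KO3. The ranges of the groups overlapped. The 4 libraries are too few to test such a relation.

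**Figure D2:**
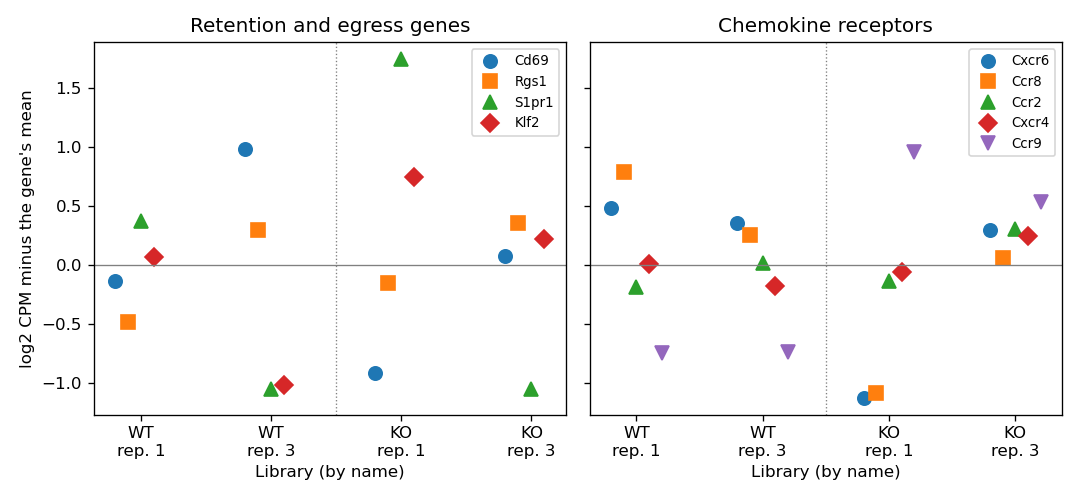
Deviation of each gene from its own mean over the 4 libraries, in log2 CPM, for retention and egress genes (left) and chemokine receptors (right); each point is 1 library. Cd69 and S1pr1 deviate in opposite directions in WT3 and KO1, Cxcr6 and Ccr8 drop together in KO1, and Ccr9 is above its mean in both KO-named libraries.

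Cxcr6, the receptor for CXCL16 and a marker of resident lymphocytes, was high and even in 3 libraries and low in the other. It lies on chromosome 9 (123806477 to 123811754, Entrez 80901). Its level was 889 CPM in WT1, 813 in WT3, 291 in KO1 and 778 in KO3. The groups did not overlap, but KO3 was below WT3 by little. Means by group were 851 CPM ± 54.1 for WT-named and 534 CPM ± 344 for KO-named (SD, n = 2 each), or -0.67 as a log2 fold change (SE 0.48, edgeR adjusted p = 0.759). Without KO1 it was -0.12. Cxcr6 lies within Fyco1, on the opposite strand and with no shared exon positions, which was at 20.6 CPM in WT1, 49.2 in WT3, 0.896 in KO1 and 1.35 in KO3, and its part in the Cxcr6 counts was not tested.

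Ccr8, the receptor for CCL1 on type 2 and regulatory lymphocytes, followed the same course. It lies on chromosome 9 (120092133 to 120094906, Entrez 12776) and was at 269.8 CPM in WT1, 186 in WT3, 73.9 in KO1 and 163 in KO3. KO1 was again far below the others, and KO3 lay just under WT3. The log2 fold change was -0.94 (SE 0.63, edgeR adjusted p = 0.727) and -0.47 without KO1. Cxcr6 per kb was 2.03, 2.69, 2.43 and 2.94 times Ccr8 per kb in WT1, WT3, KO1 and KO3, so this ratio moved less than either gene.

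Ccr9, the receptor for CCL25 that directs lymphocytes to the small intestine, was scarce and had the largest fold change of the members in the KO-named libraries. It lies on chromosome 9 (123767211 to 123783457, Entrez 12769). It was at 13.8 CPM in WT1 and in WT3, 44.8 in KO1 and 33.4 in KO3. The groups did not overlap, at 13.8 CPM ± 0.040 and 39.1 CPM ± 8.08 (SD, n = 2 each). WT1 and WT3 lay closer together than counting error alone, which is 6.23% for the lowest count of 258. Their small SD is therefore no measure of the spread between replicates. The log2 fold change was 1.50 and stayed between 1.28 and 1.69 whichever library was left out, but its SE was 1.56 (edgeR adjusted p = 0.874). That SE draws on the spread of other genes at similar levels as well as on that of Ccr9. The strand setting of the counting is not given in the sources used here, and the GENCODE model of Ccr9 is longer than the RefSeq gene given above, starting at 123678439. Over that longer model lie exons of Slc6a20a, on the opposite strand, and of the noncoding Gm17200, on the same strand. Lztfl1, which overlaps that longer model on the opposite strand without shared exon positions, was at 169 CPM in WT1, 259 in WT3, 443 in KO1 and 752 in KO3. Its part in the Ccr9 counts was not tested. Dendritic cell markers, of which Xcr1, Zbtb46 and Ccr7 of 9 were listed, summed to 64.3 CPM in WT1, 29.7 in WT3, 1.87 in KO1 and 14.6 in KO3. Siglech and Bst2 were among those not listed. The part of dendritic cells in the Ccr9 level was not tested.

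Ccr2, the receptor for CCL2 and CCL7 on monocytes, was among the most even of the members. It lies on chromosome 9 (124101918 to 124109140, Entrez 12772). Its level was 1074 CPM in WT1, 1236 in WT3, 1110.1 in KO1 and 1511 in KO3. The groups overlapped, the highest library being 1.41 times the lowest. Between the groups the log2 fold change was 0.18 (SE 0.35, edgeR adjusted p = 0.946), and -0.14 with library size alone. Monocyte and macrophage markers, of which Adgre1, Cd68 and Fcgr1 of 11 were listed, summed to 2.02 CPM in WT1, 13.0 in WT3, 29.4 in KO1 and 32.8 in KO3. They were thus higher in both KO-named libraries, through Adgre1 and Cd68, while Fcgr1 had at most 0.0747 CPM in any library, and their part in the Ccr2 level was not tested. The Ccr2 count was not a whole number in 2 of 4 libraries, the single member for which this was so, and it is uncertain where reads could be split between similar genes.

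Cxcr4, the receptor for CXCL12 that retains cells in bone marrow and other niches, varied least over the libraries. It lies on chromosome 1 (128588199 to 128592299, Entrez 12767) and was at 48.8 CPM in WT1, 42.9 in WT3, 46.7 in KO1 and 57.7 in KO3. The groups overlapped, with the highest library at 1.35 times the lowest. Its log2 fold change was 0.19 (SE 1.12, edgeR adjusted p = 0.983), and -0.15 with library size alone.

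**Figure D3:**
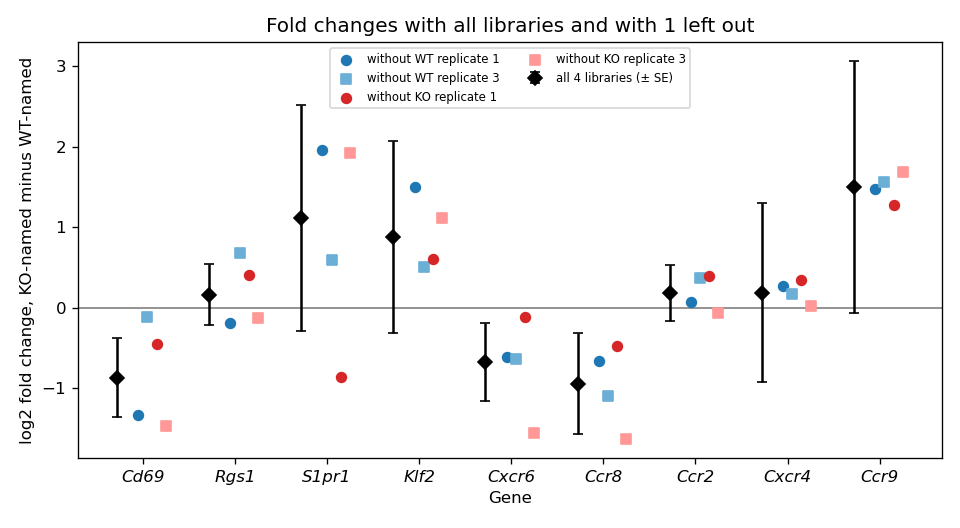
Log2 fold change of each member, KO-named minus WT-named, with all 4 libraries (black diamonds, bars ± SE) and with 1 library left out (coloured points). The S1pr1 point without KO1 falls to -0.86, the Cd69 point without WT3 reaches -0.11, and the Ccr9 points stay between 1.28 and 1.69.

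Genes with the most similar course over the 4 libraries were looked up among 6454 protein-coding genes with a mean of at least 10 CPM, as the distance between centred log2 (CPM + 0.5) values. Closest to Cd69 were Ltv1 and Mia2 (distances 0.076 and 0.081), to Rgs1 Prdm2 and B2m (0.088 and 0.095), to S1pr1 Acer3 and Dnajc8 (0.094 and 0.204) and to Klf2 Samd4b and H2-Ke6 (0.140 and 0.175). Closest to Ccr2 were Arih1 and Ehmt1 (0.046 and 0.071), to Ccr8 Adipor1 and Snx25 (0.166 and 0.178), to Ccr9 Yes1 and Gnpda2 (0.144 and 0.172), to Cxcr4 Junb and Psme2 (0.060 and 0.107) and to Cxcr6, among the genes named here, Prdx1 (0.132). With 4 libraries such likeness is easily had. Between 24 genes for S1pr1 and 282 for Ccr2 lay within a distance of 0.5. Among the members themselves Ccr2 and Cxcr4 were the closest pair (0.292), followed by Ccr8 and Cxcr6 (0.394), and Cd69 and S1pr1 the farthest apart (3.53).

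Of 31 chemokine and chemoattractant receptors 18 were listed and 16 tested. By edgeR none passed over all genes, 2 had an unadjusted p under 0.05 (Ccr1 and Ccr3; 9.81% of all tested genes did), and the median log2 fold change was -0.73, against 0.05 over all genes tested. DESeq2 called 1, Ccr1, and limma-voom 0, and over all genes they called 9.85% and 2.3%. The KO-named libraries lay below the WT-named ones without overlap for 8 of the 16 and above for 1, where 22.1% and 17.8% of all tested genes did so. Of those below, Xcr1 and Ccr7 are also among the 3 listed dendritic cell markers. The lower sum of these markers in KO1 and KO3 is therefore not a separate observation. Zbtb46, the remaining marker, was at 19.2 CPM in WT1, 10.3 in WT3, 0.373 in KO1 and 6.92 in KO3. Ccr1, which binds CCL3 and CCL5, was at 4.37 CPM in WT1, 11.0 in WT3 and 0.299 in KO1 and without a read in KO3. Ccr3, the eotaxin receptor, was at 1.33 CPM in WT1, 3.97 in WT3, 0.224 in KO1 and 0.0587 in KO3. Fewer genes of the whole table reached 100 counts in KO1 and KO3 (5398 and 6134) than in WT1 and WT3 (7338 and 6585). The part of this in the low receptor values was not tested.

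Abundant receptors outside the members varied widely between libraries without passing the test. Ccrl2, an atypical receptor that presents chemerin, was at 159 CPM in WT1, 213 in WT3, 1.12 in KO1 and 65.6 in KO3 (log2 fold change -2.48, SE 1.33, edgeR adjusted p = 0.623). That difference was -1.49 without KO1 and -7.38 without KO3. Gpr183, the oxysterol receptor EBI2, was at 82.0 CPM in WT1, 32.0 in WT3, 1.79 in KO1 and 9.27 in KO3 (log2 fold change -3.36, SE 1.67, edgeR adjusted p = 0.581), and its difference ran from -4.98 to -2.54 with 1 library left out. KO1 was thus the lowest of the 4 libraries for both receptors. On chromosome 9, between Cxcr6 and Ccr2, lie Xcr1, Ccr1 and Ccr3, and all 3 were lower in both KO-named libraries without passing edgeR's test. Xcr1, the receptor for XCL1, was at 35.8 CPM in WT1, 10.9 in WT3, 1.20 in KO1 and 4.22 in KO3. The Xcr1 count was not whole in all 4 libraries, and that of Ccr2 in 2.

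**Figure D4:**
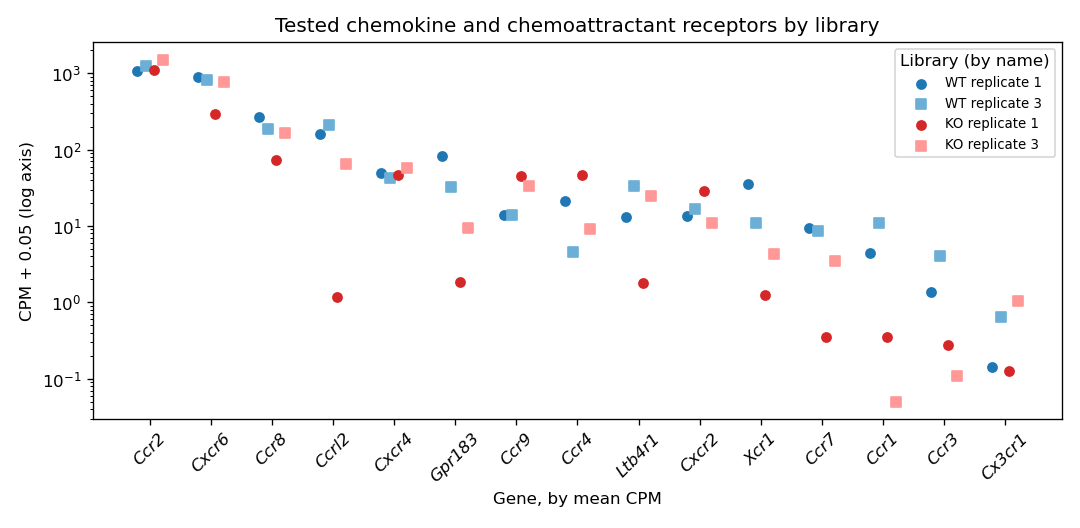
CPM + 0.05 on a log axis of tested chemokine and chemoattractant receptors in each library, ordered by mean CPM. Ccr2, Cxcr6 and Ccr8 lead, and KO1 is the lowest library for Ccrl2 and Gpr183 but not for Ccr9.

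The ligands of the members were unevenly represented. Of 29 chemokine ligands 15 were listed and 10 tested. By edgeR 0 passed and 1, Ccl4, had an unadjusted p under 0.05 (9.81% of all tested genes). The median log2 fold change was 0.18, or -0.14 with library size alone. KO1 and KO3 lay below WT1 and WT3 for 2 of the 10 and above for 0. Over all tested genes the shares were 22.1% and 17.8%. DESeq2 called 2, Ccl4 and, outside those 10, Ccl27a, and limma-voom 0. Over all genes DESeq2 called 9.85% and limma-voom 2.3%. Ccl4 was at 31.8 CPM in WT1, 32.6 in WT3, 0.149 in KO1 and 1.53 in KO3. Ccl27a had no read in WT1 or WT3, 0.0747 CPM in KO1 and 4.46 in KO3. Ccl7, a CCR2 ligand, was at 343 CPM in WT1, 507 in WT3, 938 in KO1 and 475 in KO3 (log2 fold change 0.73, SE 0.46, edgeR adjusted p = 0.701). Its highest value was in KO1, the library with fibroblast transcripts and with the highest sum of mast cell markers (10976 CPM). The part of either cell type in the Ccl7 level was not tested. Its difference was 0.17 without KO1, 0.45 without WT1, 1.12 without KO3 and 1.10 without WT3. Ccl2, the main CCR2 ligand, was at 157 CPM in WT1, 380 in WT3, 505 in KO1 and 159 in KO3, with the groups overlapping. Its log2 fold change was 0.30 (SE 0.64), but -0.76 without KO1 and -0.23 without WT1. Ccl1, the CCR8 ligand, named after its values were seen, was at 395 CPM in WT1, 377 in WT3, 201 in KO1 and 210.2 in KO3 (log2 fold change -0.91, SE 0.46, edgeR adjusted p = 0.593). Ccl1 therefore differed in the direction of its receptor Ccr8, without passing the test. Cxcl12, the CXCR4 ligand, was at most 0.299 CPM in any library. Cxcl2, a neutrophil attractant, was at 268 CPM in WT1, 417 in WT3, 145 in KO1 and 484 in KO3. Its log2 fold change was -0.12 (SE 0.59), and ran from -1.26 without KO3 to 0.51 without KO1.

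Of 25 residency and retention genes 23 were listed and 22 tested. By edgeR 0 passed, 3 had an unadjusted p under 0.05, as 9.81% of all tested genes did, and the median log2 fold change was -0.13. DESeq2 and limma-voom called 0, and over all genes they called 9.85% and 2.3%. KO1 and KO3 lay below WT1 and WT3 for 6 of the 22 genes and above for 2. Over all tested genes the shares were 22.1% and 17.8%. Those with an unadjusted p under 0.05 were Per1, a clock gene, at -2.42, Itgb2, the beta chain of LFA-1, at -2.18, and Cd44, a hyaluronan receptor, at -0.96. Of the most abundant, Rgs2, a relative of Rgs1, differed by -0.23 on the log2 scale (SE 0.35), Nr4a3, a nuclear receptor, -0.49 (SE 0.31) and Crem, a cyclic AMP-responsive factor, 0.62 (SE 0.35). The difference of Rgs2 turned to 0.068 without KO1 and 0.14 without WT3, and that of Crem was 0.28 without KO3. Itgae, the integrin chain CD103 of epithelial residents, was nearly absent, with no read in either WT-named library and at most 0.0747 CPM in the KO-named ones.

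Of 25 egress and recirculation genes 21 were listed and 17 tested. By edgeR 0 passed and 1, Sphk2, had an unadjusted p under 0.05 (9.81% of all tested genes), and the median log2 fold change was -0.35. KO1 and KO3 lay below WT1 and WT3 for 5 of the 17 and above for 2. Over all tested genes the shares were 22.1% and 17.8%. DESeq2 and limma-voom called 0, and over all genes they called 9.85% and 2.3%. Sphk2, a kinase that makes sphingosine-1-phosphate, was at 1.79 CPM in WT1 and 1.56 in WT3, without a read in KO1 and at 0.117 CPM in KO3. S1pr2, S1pr3 and S1pr5 did not pass the filter on low counts and reached at most 0.781 CPM, so S1pr1 was the sphingosine-1-phosphate receptor with appreciable counts among the 4 listed. Klf6, a relative of Klf2, was at 488 CPM in WT1, 1003 in WT3, 372 in KO1 and 526 in KO3 (log2 fold change -0.73, SE 0.46), and its difference was -1.18 without WT1 and -0.038 without WT3. Il7r, the interleukin-7 receptor chain, had -0.35 (SE 0.34), and Gna13, the G protein of S1PR2, -0.42 (SE 0.43). The Il7r difference was -0.15 without KO1, -0.58 without KO3, -0.57 without WT1 and -0.036 without WT3, and that of Gna13 was -0.070 without KO1 and -0.88 without KO3.

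Of 21 genes that control G protein signals of these receptors 19 were listed and 18 tested. By edgeR 0 passed, 0 had an unadjusted p under 0.05 (9.81% of all tested genes), and the median log2 fold change was -0.35. KO1 and KO3 lay below WT1 and WT3 for 4 of the 18 and above for 1. Over all tested genes the shares were 22.1% and 17.8%. DESeq2 called 1, Rgs16, which was outside those 18, at 19.9 CPM in WT1 and at most 0.107 CPM elsewhere, and limma-voom 0. Over all genes DESeq2 called 9.85% and limma-voom 2.3%. Rgs18 was at 195 CPM in WT1, 276 in WT3, 365 in KO1 and 402 in KO3 (log2 fold change 0.70, SE 0.47, edgeR adjusted p = 0.726). Gnai3, an inhibitory G protein that chemokine receptors use, differed by -0.61 on the log2 scale (SE 0.55), by -0.12 without KO1, -1.37 without KO3 and -1.14 without WT1, and in the other direction, by 0.29, without WT3.

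The authors' deposited table gives its own DESeq2 comparison, headed WT against KO although its sign is that of KO-named over WT-named. In the authors' deposited table no member had a q-value under 0.05, where 4.17% of genes did, and Ccr9 and Klf2 had unadjusted p-values of 0.0486 and 0.0498. Its log2 fold changes were 2.29 for Ccr9, 1.82 for Klf2 and 1.82 for S1pr1 in the authors' deposited table, against 1.49, 0.88 and 1.07 from DESeq2 on the 4 deposited count columns. For Cd69, Rgs1, Cxcr4 and Cxcr6 the authors' deposited table and the refit differed by less than 0.1. Over all 10940 genes with both values 49.2% differed by more than 0.5 from the authors' deposited table. Among the 3999 genes with at least 100 counts in every library the share was 31.1%. Which samples entered the authors' comparison is not given in the sources used here.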

How the data were processed

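Per the labels' protocols, Trizol RNA of sorted adipose ILC2 went into a Smart mRNA-seq kit, and per the submitters' processing notes mm10 was the build. Not given in the sources used here are aligner, counter, annotation and strand setting. The authors deposited an estimated count per gene and library, 20.0% to 21.6% of which are not whole numbers, and each was rounded to a whole count. Per the file headers, the authors' table also holds their DESeq2 result, as log2 fold change with its p-value and q-value. Another 12 per-sample columns were left out.

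Columns carry the numbers 1 and 3 and the labels 1 and 2, so a column numbered 3 was tied to its group alone. Chi-square over degrees of freedom was 242 within the WT-named and 361 within the KO-named pair, so no pair is the same library deposited again, and each was used as a replicate as the labels give it. Groups were compared by the quasi-likelihood test of edgeR 4.0.16 (R 4.3.3), after TMM scaling and edgeR's filterByExpr filter on low counts, and adjusted by Benjamini-Hochberg over all tested genes at 0.05. A fold change's SE was taken as its log2 value, without sign, over the square root of F. TMM factors also enter the CPM. A level of 3 counts, the limit that a count of 0 allows, is 0.138 to 0.224 CPM on that scale, and such limits cover counting error only. Alternatives used RLE factors, library size alone, no filter, DESeq2 1.42.0, limma-voom (limma 3.58.1), a replicate block and each library left out. Positions are from RefSeq (GRCm38.p6, the assembly mm10 names, 99.7% of genes matched by Entrez number), and transcript lengths and overlaps from GENCODE M21 of that assembly (97.2% matched).

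The members and gene lists were chosen with earlier results of these data known. The text names the 9 members, Rptor, the 3 most abundant other genes of each list by mean CPM, the list genes past an adjusted p of 0.05 (none), the 2 genes closest in pattern to each member, and, after their values were seen, further list genes said to be past another threshold, ligands and receptors of members, Xcr1, Itgae and S1pr2, S1pr3 and S1pr5. Some genes that this rule names are not reported here.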

Additional observations from a re-analysis of the deposited data

How the results depend on the processing

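No member passed an adjusted p of 0.05 under any of the 10 alternatives, the lowest value being 0.231, for Cxcr6. Direction was kept in 83 of 90 refits of a member. It changed for Rgs1, Ccr2 and Cxcr4 with library size alone (-0.14, -0.14 and -0.15), a scaling that moves the median of all tested genes by -0.33. With 1 library left out the log2 fold change of Rgs1 ran from -0.19 to 0.68, of Ccr2 from -0.071 to 0.40 and of S1pr1 from -0.86 to 1.96. Cd69, Klf2, Ccr8, Ccr9 and Cxcr6 kept their direction in each alternative run, although Cd69 ran from -1.47 to -0.11 and Cxcr6 from -1.56 to -0.12. The cause was not tested. Over all genes DESeq2 called 952, limma-voom 201, edgeR with the replicate block 25, and edgeR with 1 library left out 0 to 7. DESeq2 called 1, 2 and 1 genes of the receptor, ligand and G protein lists, against 9.85% of all genes. The labels do not say whether libraries with the same number share an animal, batch or day. The deviations of such libraries from their group means did not correlate (-0.0037). With 2 libraries a group, that value cannot decide whether they share an origin. With the block Cd69 was at -0.85 and Cxcr6 at -0.84. Of the 36 pairs of members, 3 changed order by level without division by length and 5 with the median transcript length, under which Cd69 came first.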
